A study of Mus musculus with 6 samples.

Results

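Of 9 genes that build the membrane skeleton of red cells, 8 could be followed in whole blood RNA of mice housed in an enriched environment (EE) and mice housed in a standard environment (SE). The genes are Sptb, Ank1, Slc4a1, Epb41, Epb42, Tmod1, Add2, Dmtn and Mpp1, chosen by name, and their values were read from every probe set that the array annotation assigns to 1 of them alone. Epb41 has no such probe set in that annotation and is not analysed here, Ank1 has 2, and each of the others has 1. Of these 9 probe sets, 8 passed the expression minimum and entered the test of 6154 probe sets, which cover 5601 genes in all by a probe set of their own. The animals were outbred male CD1 mice, 9 weeks old per the sample labels, with no inflammatory insult and no transgene. The 3 EE mice spent 2 weeks in a larger enclosure with a running wheel, a nest house and a tunnel, and the 3 SE mice spent the same time in a standard cage. Animals were housed in groups, and which of the arrayed mice shared an enclosure is not stated. Blood was drawn by cardiac puncture, and total RNA of each mouse was hybridized to its own Affymetrix array. All values are log2 values normalized by the authors with the robust multiarray average (RMA), and log2 fold changes are EE over SE, taken between group means.

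The red cell membrane is carried by a lattice of spectrin tetramers that are tied to the lipid bilayer at 2 kinds of anchor. In the ankyrin complex, ankyrin-1 links β-spectrin to the anion exchanger band 3, and protein 4.2 binds both. In the junctional complex, short actin filaments join the spectrin tails, with protein 4.1, adducin, dematin, tropomodulin and p55 as the proteins that hold, cap and attach them. Inherited loss of several of these proteins gives spherical or elliptical red cells that break early. Mature red cells carry no nucleus, so their transcripts in blood come mainly from reticulocytes, the youngest circulating red cells, and some of these genes are also used by platelets and leukocytes.

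The log2 fold changes of all 8 measured skeleton genes were negative, against 58.2% of all probe sets tested, and lay between -0.74 and -0.36, or 22.2% to 40.0% lower in EE mice on the linear scale. Of these, 6, Tmod1, Mpp1, Slc4a1, Sptb, Epb42 and Ank1, were lower in EE mice at an unadjusted p under 0.05 from limma's moderated test, the study's threshold, against 3.14% of all probe sets tested in that direction and 4.6% in either direction. None passed an adjusted p of 0.05 (limma, adjusted p from 0.754 to 0.993), and none reached the study's fold of 2 besides, which 0.0812% of probe sets did in that direction. The log2 fold change was below -0.5 for 7 of the 8, all but Dmtn, against 2.05% of probe sets. Over all 6154 probe sets 0 passed an adjusted p of 0.05 from limma, 283 had an unadjusted p under 0.05, and 97 passed the adjusted threshold when arrays were weighted by how well they match the group means. In that weighted fit 3 skeleton genes passed, Mpp1 (adjusted p = 0.0371), Sptb (adjusted p = 0.0404) and Tmod1 (adjusted p = 0.0434). It gave SE mouse 2 a weight of 4.99, against 0.591 and 0.921 for SE mice 1 and 3, and EE mouse 3 one of 0.127. In it 7.51% of probe sets were lower at an unadjusted p under 0.05. Without weights the median log2 fold change was -0.63 over the 8 skeleton genes and -0.03 over all probe sets tested. Counted from the lowest log2 fold change, the 8 genes ranked from 24 to 286 of 6154. Between 0.374% and 4.63% of probe sets lay below each of them.
The count of 6 depended on single mice. With SE mouse 1 left out it was 2, against 1.71% of all probe sets lower in the same fit. It was 3 with EE mouse 2 left out (2.25% of probe sets) and 4 with EE mouse 1 left out (2%). The genes that stayed under the threshold with each mouse left out in turn were Tmod1 and Mpp1. With array EE 3 rescaled to the slope of the other arrays, the count was also 2 (1.69% of probe sets). With quantile normalization it was 4 (2.57%), since Epb42 (unadjusted p = 0.0504 from limma) and Ank1 (0.0679) missed the threshold.
Whether the difference would hold in more mice is not known. If it does, fewer reticulocytes in the blood and less of these RNAs per reticulocyte cannot be told apart in whole blood. Neither was tested, nor was the part of other blood cells.

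**Figure D1:**
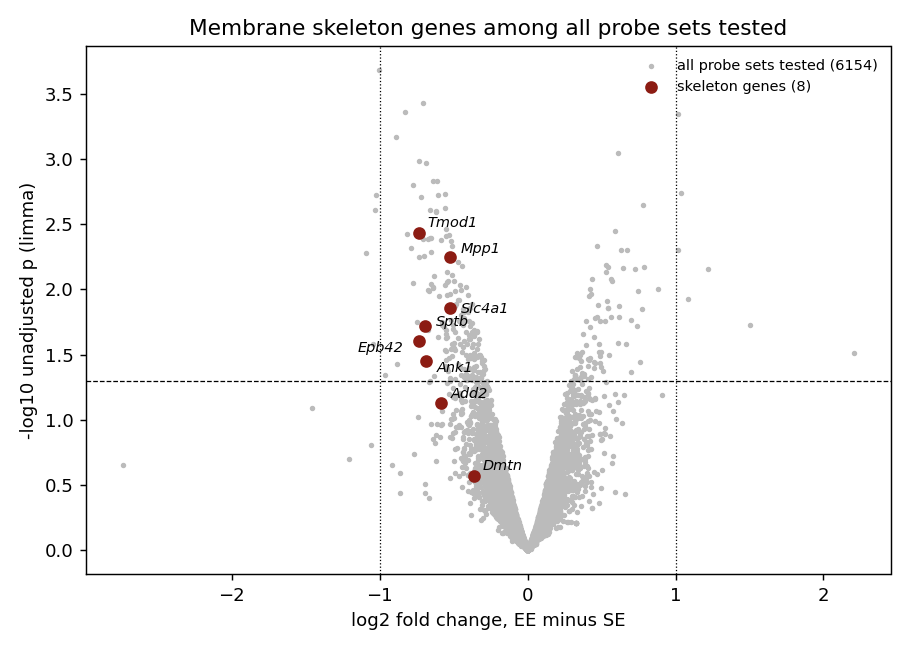
Log2 fold change (EE minus SE, x axis) against -log10 of the unadjusted p from limma (y axis) for all 6154 probe sets tested (grey) and the 8 membrane skeleton genes (red). The dashed line marks the threshold of 0.05 and the dotted lines a fold of 2 in either direction. All 8 genes lie left of zero, 6 of them above the dashed line, and none beyond the dotted line.

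Array EE 3 stood apart from the others. It lay at 29.3 on the first principal component, which held 49.5% of the variance over the probe sets tested, and the other mice lay between -10.4 and 2.56. Its B cell markers were low, with a median 0.80 below the SE mean on the log2 scale against 0.05 above it in both other EE mice. It had 8255 probe sets at or above the expression minimum, against 9165 to 9336 in the other EE mice and 9027 to 9065 in SE mice, while the median probe set lay between 5.03 and 5.11 on every array. Some markers each of red cells, neutrophils, monocytes, B cells, T cells and platelets lay above the expression minimum. Not every listed marker did. Hba-a1 and Alas2 have no probe set of their own in the annotation and were not used. The precision of each mean is limited by 3 arrays a group.

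Sptb encodes β-spectrin, the chain of the lattice that binds ankyrin. Its log2 values were 9.89, 9.53 and 10.18 in EE mice 1, 2 and 3, against 10.91, 10.62 and 10.15 in SE mice 1, 2 and 3. EE mouse 3 lay just above SE mouse 3, so the groups overlapped by that pair. EE mice averaged 9.86 ± 0.32 and SE mice 10.56 ± 0.38 (SD, n = 3 each), a log2 fold change of -0.70 (standard error 0.24, 95% interval -1.24 to -0.15, adjusted p = 0.904 from limma). The unadjusted p from limma was 0.0191, and it was 0.0654 without EE mouse 2, 0.0701 without SE mouse 1 and 0.0548 when SE mouse 2 was left out.

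The 3 genes of the ankyrin complex had lower means in EE mice, and in all 3 the highest EE mouse was mouse 3 and the lowest SE mouse was mouse 2. Slc4a1 encodes band 3, the chloride and bicarbonate exchanger that is the most abundant protein of the red cell membrane. Its values were 11.68, 11.65 and 11.98 in EE mice 1, 2 and 3, against 12.46, 12.04 and 12.37 in SE mice 1, 2 and 3. Every EE mouse lay below every SE mouse, with a gap of 0.06 between EE mouse 3 and SE mouse 2. The log2 fold change was -0.52 (standard error 0.17, 95% interval -0.90 to -0.14, adjusted p = 0.855 from limma), and its unadjusted p of 0.0139 was 0.0519 without SE mouse 1.
Epb42 encodes protein 4.2, a relative of the transglutaminases that has no enzyme activity and stabilizes the bond of ankyrin to band 3. It lay at 8.21, 8.01 and 8.88 in EE mice 1, 2 and 3 and at 9.39, 8.71 and 9.20 in SE mice 1, 2 and 3. EE mice 1 and 2 were the lowest of the 6, and EE mouse 3 lay above SE mouse 2. The log2 fold change was -0.73 (standard error 0.26, 95% interval -1.35 to -0.12, adjusted p = 0.966 from limma). Its unadjusted p of 0.0248 from limma was above 0.05 without EE mouse 1 (0.0763), EE mouse 2 (0.0814), SE mouse 1 (0.0877) or SE mouse 3 (0.0670).
Ank1 encodes ankyrin-1, the adaptor between spectrin and band 3. On its main probe set it lay at 8.12, 8.23 and 8.92 in EE mice 1, 2 and 3, against 9.42, 8.65 and 9.28 in SE mice 1, 2 and 3. As for Epb42, EE mice 1 and 2 were the lowest of the 6 and EE mouse 3 lay between SE mice 2 and 3. The log2 fold change was -0.69 (standard error 0.27, 95% interval -1.32 to -0.06, adjusted p = 0.993 from limma), and the unadjusted p of 0.0355 was 0.120 without EE mouse 1, 0.0950 without EE mouse 2, 0.119 without SE mouse 1 and 0.0991 without SE mouse 3. The other Ank1 probe set missed the minimum of 100 with a linear mean of 82.8. It had 6.17, 6.26 and 6.66 in EE mice 1, 2 and 3 and 6.15, 6.47 and 6.53 in SE mice 1, 2 and 3, a log2 fold change of -0.02 (95% interval -0.43 to 0.39 from limma over all probe sets). Which transcripts of Ank1 the 2 probe sets detect is not given in the sources used here, and their mean had a log2 fold change of -0.35 (unadjusted p = 0.110 from limma).

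The junctional complex held the genes with the smallest and the largest unadjusted p of the set, Tmod1 and Dmtn. Tmod1 encodes tropomodulin-1, which caps the slow-growing ends of the actin filaments. Its values were 7.64, 7.13 and 7.44 in EE mice 1, 2 and 3, against 8.37, 8.14 and 7.92 in SE mice 1, 2 and 3. Every EE mouse lay below every SE mouse, with a gap of 0.28 between the groups. The means of 7.40 ± 0.25 in EE mice and 8.14 ± 0.22 in SE mice (SD, n = 3 each) gave a log2 fold change of -0.74 (standard error 0.18, 95% interval -1.16 to -0.32, unadjusted p = 0.00369 and adjusted p = 0.754 from limma). This is 40.0% lower in EE mice on the linear scale.
Mpp1 encodes p55, a membrane-associated guanylate kinase that bridges protein 4.1 and glycophorin C, and it is also used by leukocytes. It lay at 11.95, 11.74 and 11.84 in EE mice 1, 2 and 3 and at 12.49, 12.43 and 12.19 in SE mice 1, 2 and 3. The groups did not overlap, with a gap of 0.23, and the EE mice lay within 0.21 of each other. The log2 fold change was -0.52 (standard error 0.14, 95% interval -0.85 to -0.20, unadjusted p = 0.00564 and adjusted p = 0.754 from limma).
Add2 encodes β-adducin, which caps the fast-growing ends of actin and recruits spectrin to them. It had 7.30, 6.85 and 7.15 in EE mice 1, 2 and 3, against 8.29, 7.65 and 7.12 in SE mice 1, 2 and 3. The SE mice spread over 1.17, the widest range of an SE group among the 8 genes, and SE mouse 3 lay among the EE mice. Its log2 fold change of -0.58 (standard error 0.28, 95% interval -1.24 to 0.07, unadjusted p = 0.0747 from limma) missed the threshold, and without SE mouse 3 it was -0.87 (unadjusted p = 0.00900).
Dmtn encodes dematin, which bundles actin. It lay at 8.46, 7.97 and 9.04 in EE mice 1, 2 and 3 and at 9.32, 8.49 and 8.74 in SE mice 1, 2 and 3, so that EE mouse 3 was above 2 of the 3 SE mice. At -0.36 on the log2 scale (standard error 0.30, 95% interval -1.07 to 0.34, unadjusted p = 0.269 from limma) it missed the threshold, as it did without EE mouse 3, where the value was -0.64 (unadjusted p = 0.0543). Its interval includes both no difference and the log2 fold changes of the other 7 genes.

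**Figure D2:**
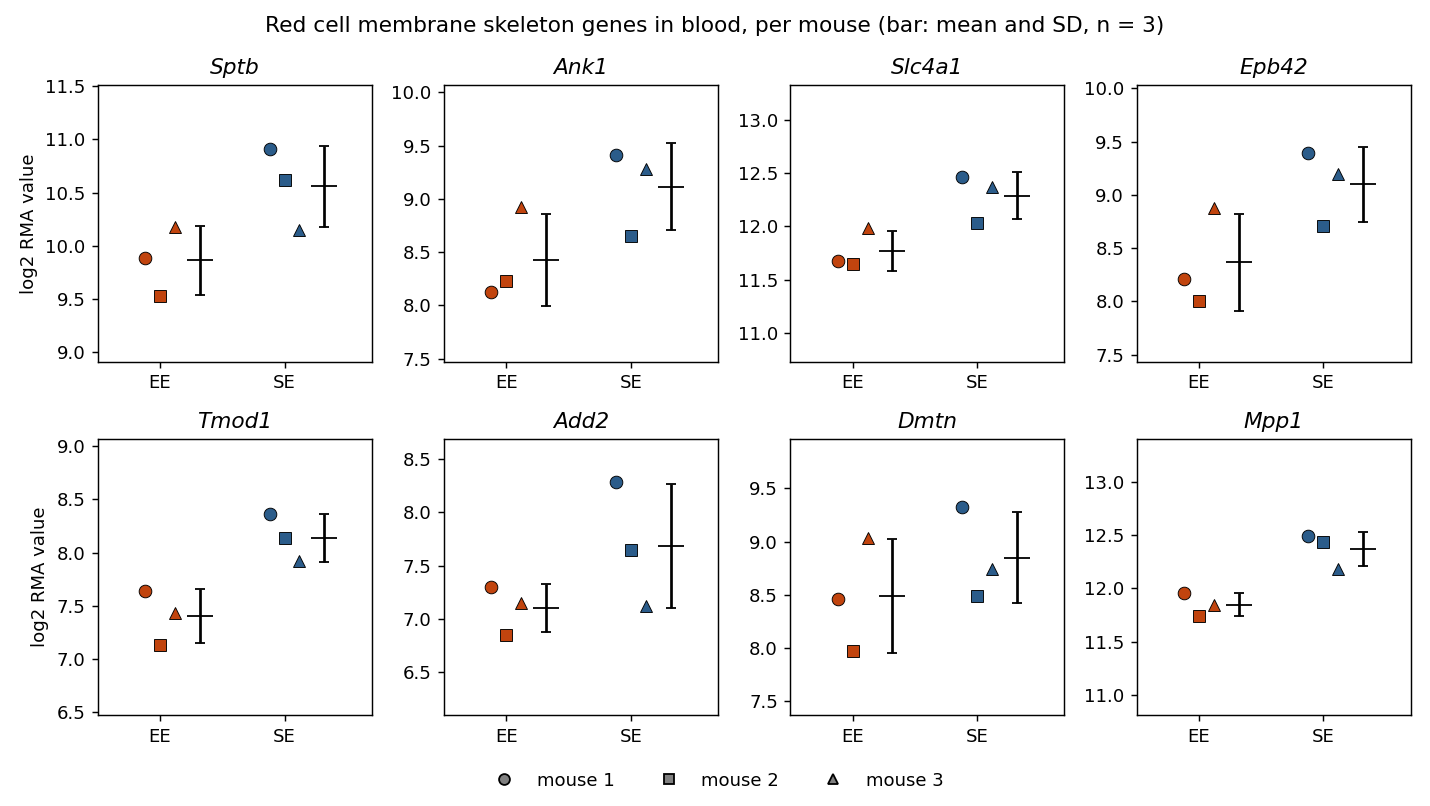
Log2 RMA value (y axis, 2.6 units tall in every panel) of each membrane skeleton gene in the 3 EE mice (left, orange) and the 3 SE mice (right, blue). Symbols mark the mouse, and the bar beside each group gives its mean and SD (n = 3). EE mice lie below SE mice without overlap for Slc4a1, Tmod1 and Mpp1, and EE mouse 3 lies highest of its group for Sptb, Ank1, Slc4a1, Epb42 and Dmtn.

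For 3 of the 8 genes, Slc4a1, Tmod1 and Mpp1, every EE mouse lay below every SE mouse, against 5.75% of all probe sets tested, and for none did every EE mouse lie above every SE mouse, against 3.92%. Without EE mouse 3 this held for 7 of 8, all but Add2, against 9.61% of probe sets in the same mice, and the log2 fold changes then lay between -0.99 and -0.52. It held for 5 without SE mouse 2, against 9.38% of probe sets, and for 5 without SE mouse 3, against 9.29%. With all 6 mice and quantile normalization it held for 2, Tmod1 and Mpp1, against 4.8% of probe sets, and with array EE 3 rescaled for 1, Tmod1, against 3.31%. The order of the mice was shared in part. SE mouse 1 was the highest SE mouse for 8 of 8 genes and EE mouse 2 the lowest EE mouse for 7 of 8, all but Ank1. The median over the 8 genes of the log2 difference from the SE mean was -0.56, -0.88 and -0.35 in EE mice 1, 2 and 3 and 0.30, -0.14 and -0.15 in SE mice 1, 2 and 3.
The genes differed in where mouse 3 of each group lay. In Epb42, Ank1, Dmtn and Slc4a1, EE mouse 3 exceeded the mean of EE mice 1 and 2 by 0.77, 0.75, 0.82 and 0.32 on the log2 scale, and SE mouse 3 exceeded SE mouse 2 by 0.49, 0.63, 0.25 and 0.33, in that order. In Tmod1, Add2 and Mpp1, EE mouse 3 lay within 0.08 of the mean of the other EE mice, and SE mouse 3 lay below SE mouse 2, with differences of -0.22, -0.53 and -0.25. Sptb stood between the sets, with EE mouse 3 at 0.47 above the other EE mice and SE mouse 3 at -0.46 from SE mouse 2. Over all probe sets tested the median difference of EE mouse 3 from the other EE mice was -0.22 and 90% lay between -0.94 and 0.54.
As a description of likeness, the root mean square distance between the centred values of 2 genes over the 6 mice was smallest for Ank1 and Epb42 (0.103), both of the ankyrin complex, followed by Tmod1 and Mpp1 (0.147), both of the junctional complex. It was largest for Ank1 and Add2 (0.461). Dmtn, of the junctional complex, was closer to Epb42 (0.232) than to Add2 (0.359), Tmod1 (0.367) or Mpp1 (0.373).

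**Figure D3:**
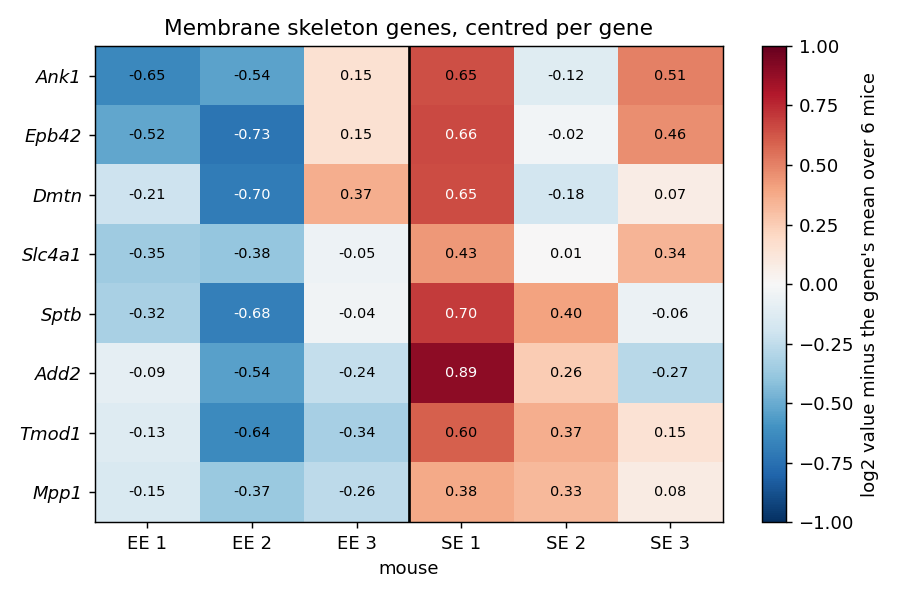
Log2 value minus the gene's mean over the 6 mice (colour, and printed in each cell) for the 8 membrane skeleton genes (rows) in EE mice 1 to 3 and SE mice 1 to 3 (columns). SE mouse 1 is above the mean of every gene, from 0.38 for Mpp1 to 0.89 for Add2. EE mouse 3 is above it for Ank1, Epb42 and Dmtn.

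Promoter windows are shown because the measured genes had negative log2 fold changes together, and because GATA-1 and KLF1, the main activators of red cell genes, bind GATA and CACCC sites. RefSeq windows of GRCm38.p6, 250 bases before to 50 after a gene start, were found for 6 of the 9 genes, 8 windows in all. Such a start need not be the one that red cells use. Of the windows 3 are from Epb41, which was not analysed, and Ank1, Slc4a1 and Dmtn have none. The counts of windows thus do not stand for the measured genes. AGATAA or TGATAA on either strand occurred in 2 of these 8 windows, in Epb42 and Mpp1, against 18.6% of all 32851 windows. CCNCNCCC on either strand occurred in 5 of the 8 windows, those of Sptb, Tmod1, Add2 and, for the rest, Epb41, against 49.5% of all. TGANTCA, the NFE2 type of site, occurred in none, against 7.81% of all. Matches of CCNCNCCC can overlap each other. The windows of Epb42 (chr2:121036828-121037127, minus strand) and Mpp1 (chrX:75130967-75131266, minus strand) have the GATA letters in capitals, which read AGATAA on the other strand. Those of Tmod1 (chr4:46038972-46039271, plus strand), the skeleton gene with the most negative log2 fold change, have the 4 CCNCNCCC matches in capitals. The pattern is wider than CACCC. These 4 matches read CCCCGCCC, CCGCGCCC or CCGCCCCC, and none of them holds the letters CACCC, which occur in lower case elsewhere in that window.
Epb42: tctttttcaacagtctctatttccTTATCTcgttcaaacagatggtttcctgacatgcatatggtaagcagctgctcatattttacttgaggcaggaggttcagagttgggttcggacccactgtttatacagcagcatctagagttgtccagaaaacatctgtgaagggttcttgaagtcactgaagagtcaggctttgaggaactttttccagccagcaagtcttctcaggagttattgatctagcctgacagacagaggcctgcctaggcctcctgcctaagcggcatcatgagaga
Mpp1: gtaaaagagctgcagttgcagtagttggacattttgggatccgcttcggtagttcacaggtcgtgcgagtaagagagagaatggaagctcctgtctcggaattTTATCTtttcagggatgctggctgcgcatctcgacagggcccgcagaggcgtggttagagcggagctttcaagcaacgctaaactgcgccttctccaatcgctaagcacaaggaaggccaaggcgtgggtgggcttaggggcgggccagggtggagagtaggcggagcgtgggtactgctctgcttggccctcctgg
Tmod1: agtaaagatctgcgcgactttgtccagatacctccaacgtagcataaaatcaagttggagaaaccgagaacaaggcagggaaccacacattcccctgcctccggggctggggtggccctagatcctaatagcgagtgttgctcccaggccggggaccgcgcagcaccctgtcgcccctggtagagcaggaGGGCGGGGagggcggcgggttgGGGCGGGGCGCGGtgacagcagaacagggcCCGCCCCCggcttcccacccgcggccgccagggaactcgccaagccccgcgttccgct
The GATA letters lie 226 to 221 bases before the start in Epb42 and 147 to 142 before it in Mpp1. In Tmod1 the 4 matches lie within the last 60 bases before the start. Whether any of these letters is bound in these cells was not measured.

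Among other genes of the same structure the log2 fold changes had both signs. At an unadjusted p under 0.05, 3.14% of all probe sets tested were lower and 1.46% higher, which is the background of each list that follows. Of 8 other subunits listed for the spectrin and actin skeleton, 7 were tested. At that threshold 1 was lower and none was higher, and their median log2 fold change was 0.14. The lower one was Tpm1, a tropomyosin along the actin filament, with 7.17, 7.16 and 7.27 in EE mice 1, 2 and 3 and 7.73, 7.73 and 7.26 in SE mice 1, 2 and 3 (log2 fold change -0.37, unadjusted p = 0.0499 from limma). It missed the threshold without EE mouse 1 (0.109), EE mouse 2 (0.117), SE mouse 1 (0.149) or SE mouse 2 (0.172). Tpm3, the other tropomyosin of red cells, stood at 0.43 on that scale (standard error 0.26), and Actb, the actin of the junctions, at 0.29 (standard error 0.13). The other adducins, Add1 and Add3, are found in many cell types, with log2 fold changes of -0.18 (95% interval -0.54 to 0.19) and -0.10 (95% interval -0.65 to 0.46).
Of 16 listed proteins that sit in the membrane beside these complexes, 12 were tested, 3 were lower and none was higher, with a median of -0.04. Kel, the Kell blood group protein, had 8.13, 8.31 and 8.60 in EE mice 1, 2 and 3, against 9.28, 9.11 and 8.97 in SE mice 1, 2 and 3. Rhd, the Rh blood group protein, had 7.53, 7.53 and 7.76 in EE mice 1, 2 and 3, against 8.40, 8.41 and 7.97 in SE mice 1, 2 and 3. In both, every EE mouse lay below every SE mouse (log2 fold changes -0.77 and -0.65, unadjusted p = 0.00159 and 0.00406 from limma). Rhag, the Rh-associated glycoprotein that anchors the Rh proteins to ankyrin, had a log2 fold change of -0.52 (unadjusted p = 0.0287 from limma), which missed the threshold without EE mouse 1 (0.0507), EE mouse 2 (0.0867) or SE mouse 1 (0.0777). Gypc, the glycophorin that p55 and protein 4.1 bind, had 6.74, 6.79 and 6.89 in EE mice 1, 2 and 3, against 6.60, 6.65 and 6.38 in SE mice 1, 2 and 3 (log2 fold change 0.27, 95% interval -0.04 to 0.57). It lay at 102 on the linear scale, just over the minimum. Its SE mean of 6.54 was under the minimum of 6.64 on the log2 scale, and its EE mean of 6.81 was above it. The 9 that missed the threshold, Gypc included, lay between -0.38 and 0.27.
Relatives of the 9 genes that serve other cell types were mostly dim. Of 23 listed, 22 had a probe set and 6 passed the minimum, of which 1 was lower and none was higher, with a median of -0.11. It was Mpp2, a relative of Mpp1, with 6.86, 6.79 and 7.31 in EE mice 1, 2 and 3 and 7.84, 7.65 and 7.39 in SE mice 1, 2 and 3 (log2 fold change -0.64, unadjusted p = 0.00979 from limma). The other 5 lay between -0.25 and 0.00, among them Epb41l2, a relative of Epb41, at -0.25 (standard error 0.17) and Sptan1, the α-spectrin of nucleated cells, at -0.12 (standard error 0.16).

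**Figure D4:**
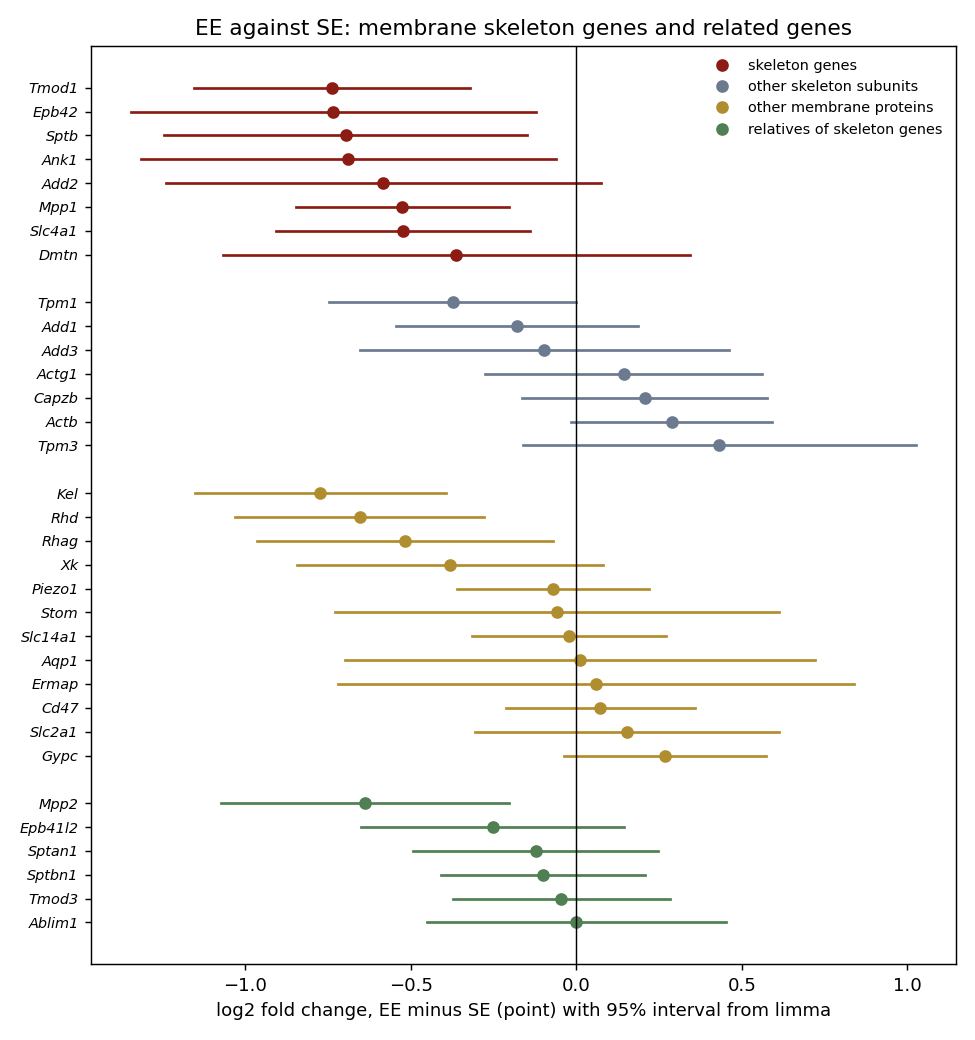
Log2 fold change, EE minus SE (points), with the 95% interval from limma (lines), for the 8 membrane skeleton genes and the tested genes of the 3 related lists. The skeleton genes lie between -0.74 and -0.36 and the intervals of 6 exclude zero. Among the related genes the intervals of Tpm1, Kel, Rhd, Rhag and Mpp2 do.

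Some red cell genes outside the membrane were also lower in EE mice, and most neutrophil markers were higher. Of 7 tested erythroid regulators out of 11 listed, 3 were lower at an unadjusted p under 0.05, against 3.14% of all probe sets tested. None was higher. The median log2 fold change of the 7 was -0.42. The 3 lower were Hemgn, a nuclear protein of erythroid cells, at -0.73, Trim10, a protein of late red cell maturation, at -1.03 and Lmo2 at -0.43. Lmo2, a bridge between erythroid transcription factors, missed the threshold without EE mouse 2 (unadjusted p = 0.0609 from limma) or SE mouse 1 (0.0548). The other tested regulators stood at -0.42 (Zfpm1), -0.04 (Tal1), -0.01 (Ldb1) and 0.07 (Gfi1b). The listed regulators under the minimum were not tested and had both signs. Over all probe sets Epor stood at 0.18, Nfe2 at 0.19, Gata1 at -0.10 and Klf1 at -0.19. Of 7 tested genes of haem synthesis, 1 was lower, Urod, at -1.03, and the median was -0.15. The count was 2 without EE mouse 3. The brightest genes of that list, Slc25a37 and Fech, stood at -0.07 and -0.11, with linear means of 11708 and 9686. Of 5 tested reticulocyte genes, 2 were lower, with a median of -0.33. These were Fbxo7, a ubiquitin ligase subunit, at -0.44 and Xpo7, a nuclear export factor, at -0.51. The other tested reticulocyte genes stood at -0.33 (Ube2o), -0.25 (Trim58) and -0.06 (Tfrc). Leaving out EE mouse 2, SE mouse 1 or SE mouse 3 gave a count of 0, leaving out EE mouse 1 gave 1, and leaving out EE mouse 3 gave 4.
Of 10 tested neutrophil markers out of 14 listed, 9 were higher in EE mice at an unadjusted p under 0.05 and none was lower, against 1.46% of probe sets higher. The count was 6 without EE mouse 1 and 6 without SE mouse 3. The log2 fold changes of the 10 lay between 0.31 and 1.22. S100a9 lay just over the minimum, at 107 on the linear scale, with log2 means of 7.26 in EE and 6.22 in SE mice. The minimum is 6.64 on the log2 scale, so its SE mean lay under it. S100a9 thus entered the test through the group in which it was higher, and its entry and its call are tied. The listed markers under the minimum were not tested and did not move alike. Over all probe sets Ly6g stood at 0.94, Ngp at 0.09, Ltf at -0.01 and Camp at -0.17. The summed level of the 10 on the linear scale was 8106, 6704 and 6700 in EE mice 1, 2 and 3, against 5217, 4900 and 4077 in SE mice 1, 2 and 3. Csf3r, the receptor of granulocyte colony-stimulating factor, had 11.13, 11.09 and 11.03 on the log2 scale in EE mice 1, 2 and 3, against 10.45, 10.54 and 10.42 in SE mice 1, 2 and 3. Of 11 tested platelet markers none passed the threshold. Their summed level was 27030, 27100 and 32510 in EE mice 1, 2 and 3, against 30140, 24750 and 19580 in SE mice 1, 2 and 3. The part of the neutrophil markers, of the platelet markers and of EE mouse 3 in the values of the skeleton genes was not tested.

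**Figure D5:**
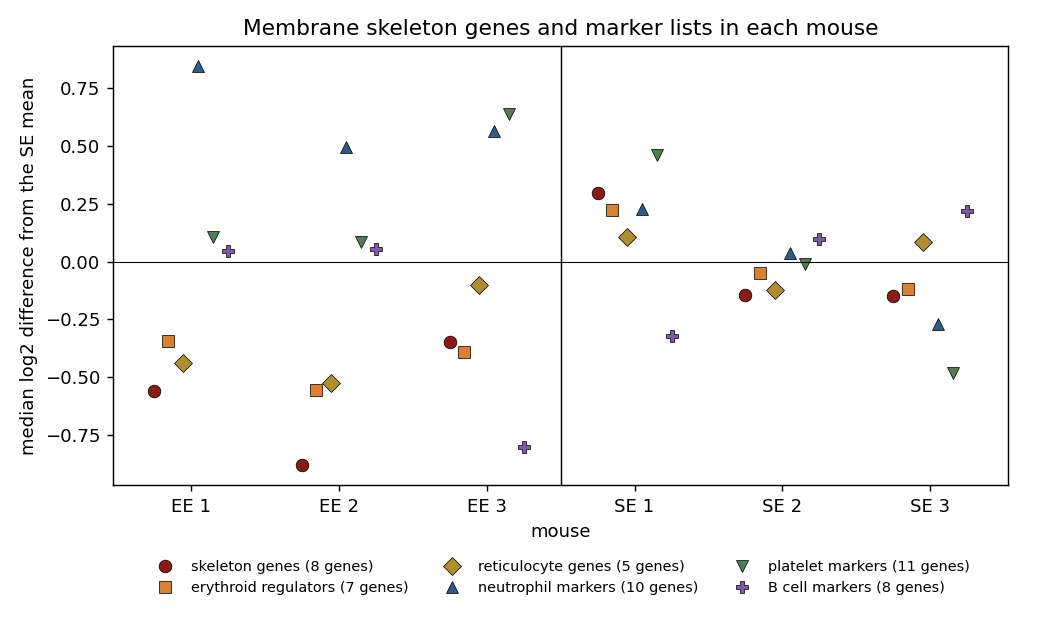
Median over the tested genes of a list of the log2 difference from the SE mean (y axis) in each mouse (x axis, EE mice left). The skeleton genes lie at -0.56, -0.88 and -0.35 in the EE mice, and the neutrophil markers at 0.85, 0.49 and 0.56. EE mouse 3 is the mouse with the lowest B cell (-0.80) and highest platelet (0.64) median.

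Among the 5601 genes tested, the 8 outside the set whose centred values over the 6 mice were most like the median of the skeleton genes had root mean square distances of 0.0895 to 0.111. The skeleton genes themselves, which define that median, lay at 0.140 (Sptb) to 0.259 (Ank1). In order, the 8 were Tinagl1, a secreted matrix protein, Snx22, a sorting nexin, Tnfrsf14, a receptor of the tumour necrosis factor family, Slc16a10, a transporter of aromatic amino acids, Memo1, Pitrm1, a mitochondrial protease, Rhag, and Mki67, a nuclear protein of dividing cells. Rhag is the one among them that sits in the red cell membrane complexes. It lay at 8.40, 8.19 and 8.41 in EE mice 1, 2 and 3, against 9.26, 8.67 and 8.62 in SE mice 1, 2 and 3. Mki67 lay at 8.55, 8.53 and 8.91 in EE mice 1, 2 and 3, against 9.54, 9.18 and 8.93 in SE mice 1, 2 and 3. Snx22 was near the minimum of 6.64 on the log2 scale. It lay at 6.49, 6.13 and 6.70 in EE mice 1, 2 and 3, against 7.17, 6.93 and 6.74 in SE mice 1, 2 and 3. Log2 fold changes of all 8 lay between -0.60 and -0.45, and a like difference between the groups is part of what the measure asks for.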

How the data were processed

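Whole blood RNA of 3 EE and 3 SE mice was measured, 1 array a mouse. The authors deposited log2 values of 41345 probe sets, normalized by RMA (affy), which corrects the background, makes array distributions alike and can compress folds. The processing notes name limma, with no version or genome build. The array version in the methods (Mouse Gene 1.0 ST) differs from that of the annotation matching the table (Mouse Gene 2.0 ST). Columns were matched to mice by accession and title. In the annotation 23521 probe sets have 1 gene symbol, 1820 several and 16004 none listed. As in the study, a probe set needed an Entrez ID and a linear mean of at least 100 (6.64 as log2). Groups were compared in R 4.3.3 by lmFit and eBayes of limma 3.58.1 (Benjamini-Hochberg over 6154 probe sets). The code was tested on simulated data. Where a gene had several probe sets, the brightest stood for it. Named are the skeleton genes, Gypc as a partner, at most 3 genes of every list described, those of smallest p, and the 8 genes most alike. Gata1, Klf1 and the neutrophil markers under the minimum are named besides. So are the other erythroid regulators, the other tested reticulocyte genes, Fech and Slc25a37, added after their values were seen. Add1 and Add3 were added as partners of Add2 after their values were seen. The genes and lists were chosen with earlier results of these data known, so no list was tested. Each array was a mouse of its own, which is the spread behind the p-values, and scan dates were not used here. If the mice of a group shared an enclosure, that spread does not measure the spread between enclosures. Alternatives covered the minimum, scaling, limma settings, a block by mouse number, each mouse left out, and the mean of a gene's probe sets.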

Additional observations from a re-analysis of the deposited data

How the results depend on the processing

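All 8 skeleton genes kept negative log2 fold changes under each of the 16 alternatives that tested them (Add2 was under the minimum of 200). Their median lay between -0.70 and -0.49. Tmod1 and Mpp1 kept an unadjusted p under 0.05 in all 16, and Dmtn in none. Leaving out each mouse in turn, the count of skeleton genes lower was 2 to 6, against 1.71% to 4.73% of probe sets. The count without overlap was 3 to 7, against 9.29% to 11.4%. The counts lower were 0 to 1 for the other skeleton subunits, 1 to 2 for haem synthesis and 0 to 4 for reticulocyte genes. Quantile normalization left 4 skeleton genes lower, without Epb42 and Ank1, and 2 without overlap. With array EE 3 rescaled so that it rises 1 for 1 with the average of the remaining arrays, chosen after seeing the data, 2 skeleton genes were lower and 1 did not overlap, and the counts were 0 for the other skeleton subunits and 0 for the reticulocyte genes. The one called skeleton subunit, Tpm1, was lost, leaving 0, at a minimum of 200, with arrays centred on their median, with quantile normalization and with the mouse number as a replicate block. The one called relative, Mpp2, is under the minimum of 200, leaving 0. With array weights, which gave EE mouse 3 a weight of 0.127 and SE mouse 2 one of 4.99, the haem count was 3. The cause of these changes was not tested, beyond the genes a minimum removes. The sample labels do not say whether the mouse numbers pair the mice. Deviations of same-numbered mice correlated at -0.257, 0.055 and -0.31 across probe sets, which cannot decide it with 3 mice a group. With the replicate block 7 skeleton genes were lower, Add2 besides the 6, against 2.34% of probe sets. With 3 arrays a group, the intervals of Add2 and Dmtn cannot tell no difference from one like that of Tmod1.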

Other observations

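Few markers of the other leukocytes differed between EE and SE mice. Of 7 tested monocyte markers only Mpeg1 passed the unadjusted threshold, with a log2 fold change of 0.35 (unadjusted p = 0.0339 from limma). Of 12 tested T cell markers 1 was higher, Thy1, at 0.31 (unadjusted p = 0.0486 from limma), and the median of the list was 0.47, 0.40 and -0.36 from the SE mean in EE mice 1, 2 and 3. None of 8 tested B cell markers and none of 3 tested natural killer cell markers passed that threshold, with median log2 fold changes of -0.22 and 0.03.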
